A study of Mus musculus with 6 samples.

Results

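Long stretches of H3K36me3 were followed in mature T cells of the mouse thymus. A long block was a run of 10 kb windows, at least 100 kb in length, in which the pooled CD4 and CD8 H3K36me3 libraries held 40 reads or more and at least 2 times the input, compared as RPM (reads scaled to the library's total on chromosomes 1 to 19). Single failing windows were allowed between passing ones. On chromosomes 1 to 19, 649 of the 6305 blocks of any length were long, or 10.3%. Since H3K36me3 reads chose the blocks, their height and length are given as a description. The H3K4me3 reads and the division of the H3K36me3 reads between CD4 and CD8 cells were not used in the choice. H3K36me3 was low where H3K4me3 lay, however, so the rule may have placed block ends and gaps near H3K4me3, which was not tested.

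H3K36me3 is laid down over transcribed gene bodies by the methyltransferase Setd2, which travels with elongating RNA polymerase II. H3K4me3 marks the nucleosomes around active promoters. CD4 and CD8 cells are the helper and cytotoxic lineages that leave the thymus after selection, and share most of the genes they transcribe.

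The cells came from the thymus of C57BL/6 mice. Mature CD4+ T cells and mature CD8+ T cells each gave 1 H3K36me3 library, 1 H3K4me3 library and 1 input library of chromatin cut to mononucleosomes with micrococcal nuclease. The number, sex and age of the mice, any pooling of animals and the markers used to sort the cells are not given in the labels. The precipitated libraries were made with rabbit polyclonal antibodies. No group had a replicate, so no p-value is given. Intervals are exact 95% binomial intervals. Those of ratios hold the counting error of reads alone, and so set library against library rather than cell type against cell type. Those of shares cover the counting of blocks, ends or windows alone. They take these as independent, although the ends or windows of 1 block need not be. No annotation or genome of mm9, the build of the deposited positions, was used here, so blocks carry no gene names or sequences, and the labelled cell types could not be checked against marker genes.

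The H3K36me3 libraries held 6599587 reads in CD4 and 6604331 reads in CD8 on chromosomes 1 to 19. The H3K4me3 libraries held 10491937 reads in CD4 and 11878642 in CD8, and the inputs 9913123 in CD4 and 9716101 in CD8. Reads at distinct positions made up 54.3% of the CD4 and 31.3% of the CD8 H3K4me3 library, against 91.1% or more in the other 4 libraries. Away from all blocks and H3K4me3 domains, H3K4me3 reached 20.1% of the input RPM in CD4 and 1.58% in CD8. For H3K36me3 it was 35.6% in CD4 and 36.04% in CD8. The H3K4me3 libraries thus differed in background, and the H3K36me3 libraries were close to each other.

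The 649 long blocks covered 86.6 Mb, or 3.50% of chromosomes 1 to 19. They held 17.7% of the CD4 and 18.4% of the CD8 H3K36me3 reads, against 3.85% of the CD4 and 3.77% of the CD8 input reads. The median length was 120 kb, and 50 blocks reached 200 kb or more, of which 8 reached 300 kb or more. The threshold cut through a continuous range of lengths. There were 165 blocks of exactly 100 kb, with a median level of 4.60 times the input, and 195 blocks of exactly 90 kb, with a median level of 4.44 times the input. When either input took the place of the H3K36me3 libraries, the same rule gave no long block, and the longest run was 30 kb.

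**Figure D1:**
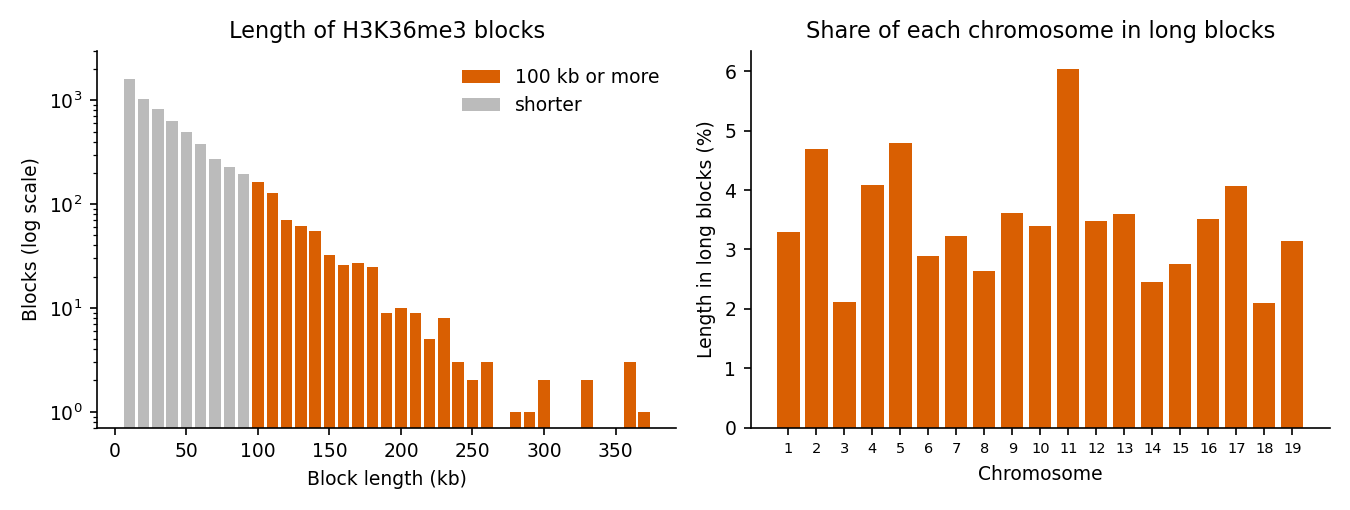
Number of H3K36me3 blocks (vertical axis) by block length in kb (horizontal axis), with the 649 blocks of 100 kb or more set apart from the shorter ones. The counts fall across the threshold without a break, with 195 blocks of 90 kb and 165 of 100 kb.

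Long blocks were unevenly spread over the chromosomes. Chromosome 11 had the highest share of its length in long blocks, 6.04% in 53 blocks, followed by chromosome 5 with 4.79% in 56 blocks and chromosome 2 with 4.69% in 65 blocks. Chromosome 18 had the lowest share, 2.09% in 17 blocks, and chromosome 3 had 2.11% in 24 blocks. Some lay close together: 32 of the 630 pairs of consecutive long blocks on a chromosome were 20 to 50 kb apart.

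The level of H3K36me3 was similar in both cell types. Over the 649 blocks the median was 4.52 times the input in CD4 cells, with a range of 1.88 to 8.67, and 4.83 times the input in CD8 cells, with a range of 1.85 to 9.81. Of the 7959 passing windows in long blocks, 95.9% were also at 2 times the input or more in CD4 cells alone, and 96.2% in CD8 cells alone. The pool that chose these windows includes both libraries, so high shares in each were favoured in advance and are a description. The level was uneven along a block, since the highest passing window stood a median of 3.47 times above the lowest, with a range over blocks of 1.54 to 9.15. With each cell type called alone, at a minimum of 20 reads per window in place of 40, 648 long blocks were found in CD4 and 644 in CD8. An overlap with a CD8 block was seen for 77.5% of the CD4 blocks, and 78.1% of the CD8 blocks overlapped a CD4 block. The level in the other cell type was rarely low, being under 2 times the input in 8 of the 648 CD4 blocks and in 3 of the 644 CD8 blocks.

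H3K4me3 gathered at the ends of the blocks. A domain here is a stretch where 200 bp bins reached 4 times the input or more in either cell type, with breaks of up to 400 bp bridged. Those of 1 kb or wider, called wide, were counted. Of the 1298 block ends, 482 had a domain centred within 10 kb of the edge, or 37.1% (34.5 to 39.8). Of all 10 kb grid lines on chromosomes 1 to 19, most of them outside any block, 6.88% had one. Set against the blocks themselves the contrast was smaller. There were 2.03 wide domains per 100 kb within 10 kb of an edge, and 1.18 per 100 kb in block interiors. By block, 84 had a domain at both ends (12.9%), 314 at 1 end (48.4%), 139 in the interior only (21.4%) and 112 had none (17.3%). At least 1 end was marked in 398 blocks, or 61.3% (57.5 to 65.1). Blocks of 50 to 90 kb gave 59.9% (57.4 to 62.3 of 1562 blocks), so a marked end was about as frequent in them, and the intervals overlap. This share depended on the definition: it was 79.0% within 20 kb of the edge and 55.0% with CD8 domains alone.

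The domains peaked at the edge itself. In steps of 5 kb, there were 14.9 domains per 100 ends just outside the edge and 12.0 just inside. Farther out there were 8.55 between 5 and 10 kb, and 4.55 between 45 and 50 kb. Inside the block the count was 5.08 between 5 and 10 kb. Of the 314 blocks marked at 1 end, 165 had the domain at the end with the lower coordinate, so neither direction along the chromosome was favoured.

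**Figure D2:**
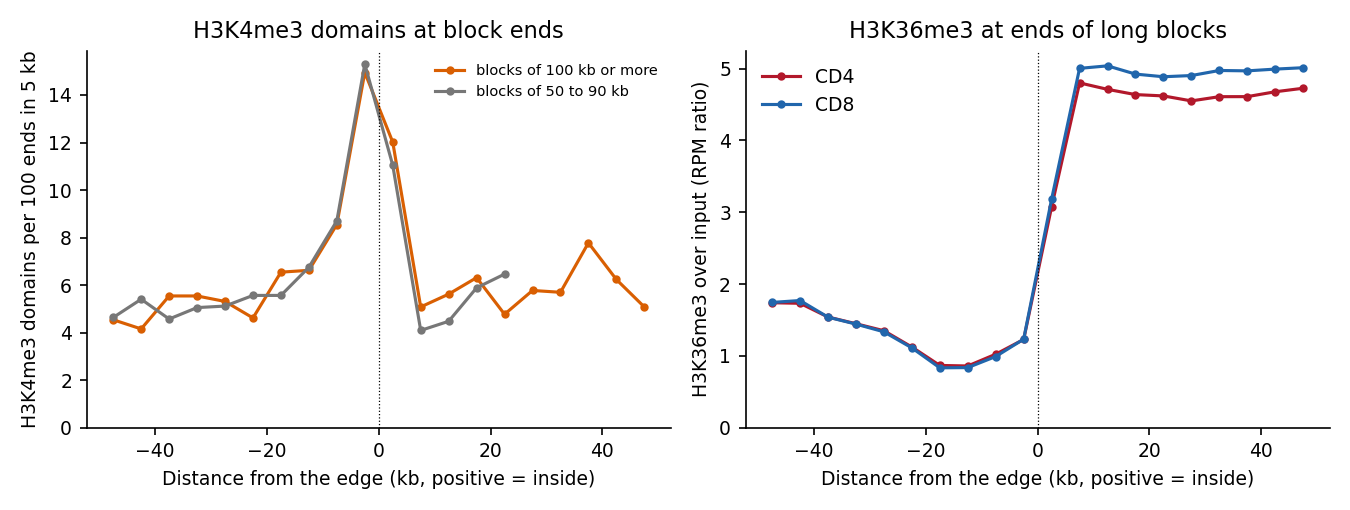
H3K4me3 domains of 1 kb or wider per 100 block ends, and H3K36me3 over input, in 5 kb steps of distance from the block edge in kb (negative values lie outside the block). Domains peak in the steps on both sides of the edge, at 14.9 outside and 12.0 inside for long blocks, where the H3K36me3 level steps up.

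The step in H3K36me3 at an end was much the same with and without a domain. At the 482 ends with a domain, the first 20 kb inside averaged 4.30 times the input in CD4 and 4.64 in CD8, against 0.905 in CD4 and 0.905 in CD8 over the 20 kb outside. At the 816 ends without one, the first 20 kb inside averaged 4.33 in CD4 and 4.51 in CD8, against 1.05 in CD4 and 1.01 in CD8 outside. The height of this step follows from the rule that chose the blocks and is given for comparison only.

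Inside the blocks, H3K36me3 was lower where H3K4me3 lay. Within the 866 interior domains it was 1.37 times the input in CD4 and 1.66 in CD8. Within the 527 end domains it was 1.25 in CD4 and 1.64 in CD8. Over whole blocks it was 4.59 in CD4 and 4.89 in CD8. These domains had a median width of 1400 bp, against windows of 10 kb. A window with a domain may hold less H3K36me3, so ends and gaps may not have been placed independently of H3K4me3. Whether, and how far, this brought ends and domains together was not tested. The failing windows that the blocks bridge showed the same pairing. Of these 703 gap windows, 257 held a domain, or 36.6% (32.99 to 40.2), against 563 of the 6661 passing windows that were neither first nor last in their block, or 8.45% (7.79 to 9.15). The gap windows had a median of 1.42 times the input. Of the 703, 608 had 40 reads or more but less than 2 times the input, and 95 had fewer than 40 reads, whatever their ratio.

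Interior domains were about as dense in long blocks as in shorter ones. There were 1.18 interior domains per 100 kb in long blocks, 1.16 in blocks of 50 to 90 kb, and 0.374 domains per 100 kb over chromosomes 1 to 19. Long blocks held a median of 1 interior domain, 126 held 3 or more, and the highest number was 19. End and interior domains had the same median width, 1400 bp, as domains elsewhere. Their pooled level was a median of 82.2 RPM at ends and 87.7 RPM in the interior, against 68.8 RPM outside long blocks. Nearly all were found in both cell types, 99.2% at ends and 98.0% in the interior, against 97.9% outside.

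The block with 19 interior domains was chr19:8780001-9080000, 300 kb long, with 3413 CD4 and 3872 CD8 H3K36me3 reads against 1228 CD4 and 1145 CD8 input reads. The next were chr17:34040001-34200000 with 11 interior domains, and chr10:127710001-127960000 and chr4:129190001-129410000 with 9 each. These blocks are strings of many H3K4me3 domains within runs of H3K36me3 joined over single failing windows. There were 5 such windows in the block on chromosome 19, 2 on chromosome 17, 4 on chromosome 10 and 2 on chromosome 4. The 10 longest blocks were of another kind in most cases, since 9 of them held 3 or fewer interior domains.

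The longest block, chr15:7960001-8330000, spanned 370 kb and had 5234 CD4 and 5604 CD8 H3K36me3 reads against 1547 CD4 and 1600 CD8 input reads. Its 3 wide domains all lay in the interior, at 99.4, 159.2 and 269.7 kb from its start, and none was called different between CD4 and CD8 cells, although the last was called higher in CD8 when scaled by total reads. At 360 kb, chr6:146020001-146380000 had 6288 CD4 and 5538 CD8 reads against 1726 CD4 and 1786 CD8 input reads, and no H3K4me3 domain of any width inside it or within 10 kb. Its nearest wide domain lay 70.1 kb away. The block chr11:34120001-34450000, 330 kb long with 4596 CD4 and 4663 CD8 reads, also had no domain of any width.

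Among the other long ones, chr6:98870001-99230000, at 360 kb, had 3779 CD4 and 3508 CD8 H3K36me3 reads (log2 0.14). Of its 3 interior domains the widest, 5.8 kb, had 3271 CD4 and 1448 CD8 H3K4me3 reads (log2 1.74). The block chr17:74940001-75270000 had 4729 CD4 and 5225 CD8 H3K36me3 reads (log2 -0.12), and chr17:30730001-31020000 had 5407 CD4 and 4258 CD8 reads (log2 0.37). By length, a marked end was seen in 76.0% (61.8 to 86.9) of the 50 blocks of 200 kb or more, in 53.8% (44.4 to 62.96) of the 119 blocks of 150 to 190 kb and in 61.7% (57.2 to 66.04) of the 480 blocks of 100 to 140 kb. These shares did not follow length in one direction.

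In all, 90 long blocks, or 13.9% (11.3 to 16.8), had no H3K4me3 domain of any width inside or within 10 kb. In blocks of 50 to 90 kb the share was higher, 17.9% (16.1 to 19.9), with intervals that overlap. For wide domains alone the intervals were apart. Blocks with none inside or at an end made up 17.3% (14.4 to 20.4) of long blocks and 25.4% (23.2 to 27.6) of blocks of 50 to 90 kb. These shares were not adjusted for block length. Of the 112 blocks with no wide domain, 73 had one within 50 kb and 19 had none within 100 kb, and the median distance was 28.5 kb. Their H3K36me3 stood at a median of 4.06 times the input, against 4.87 for blocks marked at 1 end and 4.69 for blocks marked at both.

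H3K36me3 was lowest in the outermost parts of blocks with a single marked end. Each block was cut into 10 equal parts, counted from the end with the domain. In the 118 blocks with 1 marked end and no interior domain, CD4 H3K36me3 was 3.63 times the input in the part nearest the domain, 5.09 in the sixth and 4.08 in the last. In CD8 it was 4.01 in the nearest part, 5.32 in the seventh and 4.18 in the last. The 5 parts farther from the domain were higher than the nearer 5 in 77 of 118 blocks in CD4, or 65.3% (55.9 to 73.8), and in 68 of 118 in CD8, or 57.6% (48.2 to 66.7), an interval that includes an even split. Without the first and last parts it was 71 of 118 in CD4 (60.2%) and 66 of 118 in CD8 (55.9%). The outermost parts were also the lowest in the 112 blocks with no wide domain, at 3.79 in the first and 3.46 in the last in CD4, and 3.91 in the first and 3.49 in the last in CD8. With interior domains allowed, it was 162 of 314 blocks in CD4 (51.6%) and 160 of 314 in CD8 (51.0%), so no lean to either side was seen.

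**Figure D3:**
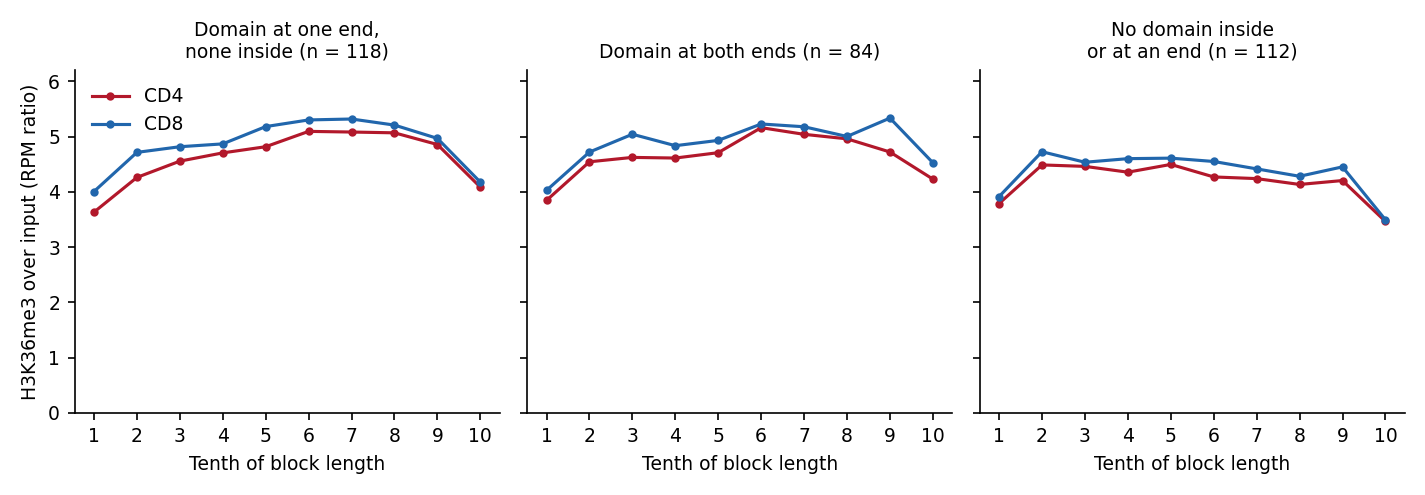
H3K36me3 over input in 10 equal parts along the block, for CD4 and CD8, with blocks grouped by where their wide H3K4me3 domains lie and blocks with 1 marked end counted from that end. In the 118 blocks with 1 marked end and no interior domain, CD4 values are 3.63 beside the domain and reach 5.09 in the sixth part.

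H3K36me3 on long blocks was close to equal in the cell types. The log2 ratio of CD4 over CD8, centred on its median over all passing windows (-0.03), had a median of -0.04 over the 649 blocks, an SD of 0.26 and a range of -1.51 to 0.92. The SD was 5.02 times the spread from counting reads alone, so a block that was not called is not thereby equal in the 2 libraries. Of the blocks, 71.2% lay within 1.2-fold, against 62.8% of blocks of 50 to 90 kb. A block was called different at 1.5-fold with a 99% interval beyond no change. By this rule 14 long blocks were higher in CD4, or 2.16%, where 8.44% of blocks of any length were, and 5 were higher in CD8, or 0.77%, where 2.65% of blocks of any length were. Both directions together came to 2.93% of long blocks, against 5.89% of blocks of 50 to 90 kb, with 4.55% higher in CD4 and 1.34% in CD8. The long blocks held a median of 3375 H3K36me3 reads, against 1668 for blocks of 50 to 90 kb. The inputs gave no call among the 649 blocks, and 0.603% over blocks of any length. None of the 50 blocks of 200 kb or more was called.

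**Figure D4:**
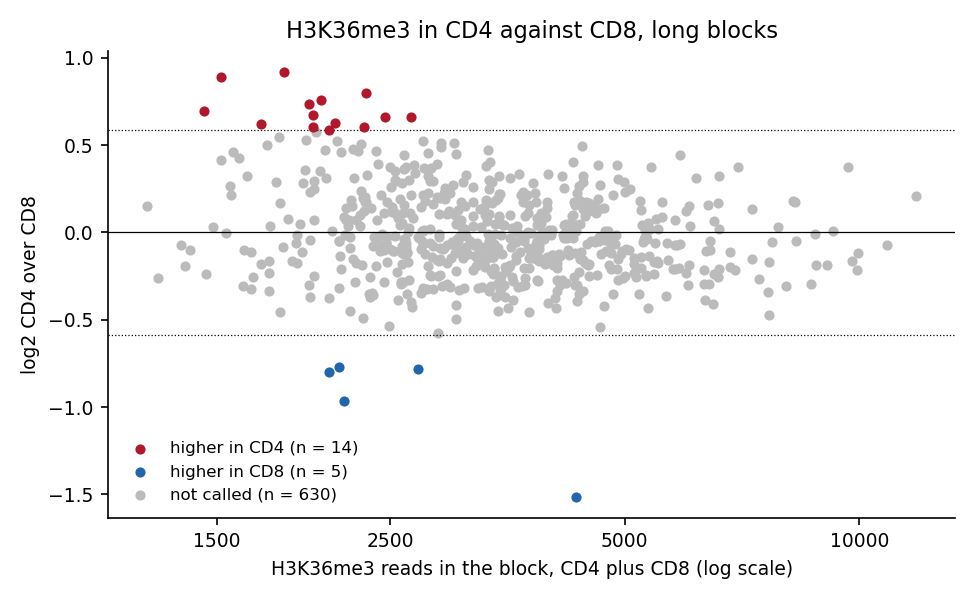
Log2 ratio of CD4 over CD8 H3K36me3 (vertical axis) against the pooled H3K36me3 reads of each of the 649 long blocks (horizontal axis, log scale), with dotted lines at 1.5-fold. The 14 blocks called higher in CD4 lie above the upper line, and of the 5 called higher in CD8 one stands apart at -1.51.

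The largest difference was at chr2:126140001-126320000, a 180 kb block with 1106 CD4 and 3220 CD8 H3K36me3 reads against 885 CD4 and 844 CD8 input reads. The CD8 level was 2.85 times the CD4 level (2.67 to 3.06), and 17 of its 18 windows were called higher in CD8. In CD4 cells the block stood at 1.88 times the input, just under the level the rule asks of the pool, against 5.61 in CD8 cells. Its 1 wide H3K4me3 domain, 3.0 kb wide and 4.9 kb beyond the far edge, had 705 CD4 and 1080 CD8 reads and a centred log2 ratio of -0.05 (-0.19 to 0.09). The H3K4me3 log2 ratios are centred on their median over all domains (-0.56), and scaling by total reads instead would shift each by -0.38. Scaled that way, this domain has a log2 ratio of -0.44 (-0.58 to -0.30), on the CD8 side, and under neither scaling was it called.

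The other 4 blocks higher in CD8 were 100 to 120 kb long. At chr18:89350001-89450000 there were 729 CD4 and 1454 CD8 H3K36me3 reads (log2 -0.97). Its interior domain of 2.6 kb went the other way, with 915 CD4 and 152 CD8 H3K4me3 reads and a log2 ratio of 3.15 (2.90 to 3.41). At chr16:48920001-49030000 both marks were higher in CD8, with 753 CD4 and 1338 CD8 H3K36me3 reads (log2 -0.80) and 664 CD4 and 1818 CD8 H3K4me3 reads in its interior domain (log2 -0.89). At chr7:79300001-79400000 there were 785 CD4 and 1368 CD8 reads (log2 -0.77) and no domain, the nearest wide one being 51.3 kb away.

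In the fifth of these, chr11:72840001-72960000, the difference lay in the far part of the block. Over the first 70 kb there were 845 CD4 and 862 CD8 H3K36me3 reads (log2 0.00), and over the last 50 kb 141 CD4 and 866 CD8 reads (log2 -2.59). A pair of H3K4me3 domains called in CD8 alone lay just before this boundary, at 65.4 kb with 47 CD4 and 1305 CD8 reads and at 68.6 kb with 5 CD4 and 177 CD8 reads. The domain 7.3 kb before the block start, with 316 CD4 and 839 CD8 reads, and the one at 21.8 kb, with 395 CD4 and 1086 CD8 reads, were also called higher in CD8. The only wide domain inside the last 50 kb, at 111.1 kb, had 358 CD4 and 402 CD8 reads (log2 0.40, or 0.01 when scaled by total reads) and was not called. The boundary was placed where the reads fitted best, so its values carry no interval.

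Among the 14 blocks higher in CD4, the log2 ratio ran between 0.59 and 0.92. The highest was chr13:58100001-58200000, with 1187 CD4 and 640 CD8 H3K36me3 reads, against 514 CD4 and 423 CD8 input reads, a CD4 level 1.89 times that of CD8 (1.72 to 2.09). All 9 of its passing windows had a ratio above 0, and its only wide domain had 251 CD4 and 175 CD8 H3K4me3 reads (log2 1.08). The next was chr10:80570001-80680000, with 980 CD4 and 539 CD8 reads (log2 0.89), and 4 interior domains. None of its 5 wide domains was called different, whereas 2 were called higher in CD8 when scaled by total reads. At chr5:125490001-125600000 there were 1469 CD4 and 860 CD8 reads (log2 0.80) with no wide domain nearer than 59.0 kb. The fourth, chr4:134950001-135050000, had 1275 CD4 and 767 CD8 reads (log2 0.76), and the domain at its far end had 1440 CD4 and 2148 CD8 H3K4me3 reads (log2 -0.01, or -0.40 when scaled by total reads). The fifth, chr17:80960001-81060000, had 1221 CD4 and 747 CD8 reads (log2 0.74), although its first 10 kb were called higher in CD8, with 47 CD4 and 94 CD8 reads. The domain over that first window had 1041 CD4 and 725 CD8 H3K4me3 reads (log2 1.09).

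H3K4me3 did not follow these differences in one direction. Over the 11 of the 14 blocks higher in CD4 that held wide domains, the summed H3K4me3 log2 ratio was above 0 in 5, and over the 4 of the 5 blocks higher in CD8 that held wide domains it was above 0 in 1. Scaled by total reads, it was above 0 in 3 of the 11 blocks higher in CD4 and in 1 of the 4 higher in CD8. Among the 522 blocks with wide domains that were not called, it was above 0 in 227, or in 99 when scaled by total reads. With so few called blocks, no difference from the blocks not called was read. Across the 537 long blocks with a wide domain, the H3K4me3 and H3K36me3 log2 ratios had a Pearson r of -0.12 and a Spearman rho of -0.09. These are descriptions over blocks that share the same 4 libraries.

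Opposite differences within a single block were uncommon. Of the 7959 passing windows, 479 were higher in CD4 (6.02%, against 8.3% of all passing windows) and 331 in CD8 (4.16%, against 4.21%). Windows higher in CD4 fell in 208 blocks and windows higher in CD8 in 166. Only 20 of the 649 blocks held both kinds, and 295 held no called window. The next 2 blocks were picked after their values were seen. Each was cut where its reads fitted best, which favours unlike parts, so the values of the parts carry no interval. At chr2:32510001-32620000 the whole block was even, with 1113 CD4 and 1082 CD8 reads. Its first 30 kb had 223 CD4 and 439 CD8 reads (log2 -0.95) and the other 80 kb had 890 CD4 and 643 CD8 reads (log2 0.50). The H3K4me3 domain at its start had 53 CD4 and 763 CD8 reads, and an interior one at 67.8 kb had 3676 CD4 and 2093 CD8 reads, and both lay beside a stretch of the same direction. Another interior domain, at 58.3 kb with 508 CD4 and 1222 CD8 reads, was called higher in CD8 within the stretch where H3K36me3 was higher in CD4. At chr11:98810001-98920000 the first 40 kb had 251 CD4 and 130 CD8 reads (log2 0.98) and the other 70 kb had 502 CD4 and 923 CD8 reads (log2 -0.85). Its called wide H3K4me3 domains ran the other way. In the first stretch, the domain at 12.2 kb had 129 CD4 and 744 CD8 H3K4me3 reads (log2 -1.96) and the one at 14.9 kb had 59 CD4 and 283 CD8 reads (log2 -1.70). In the other stretch, the domain at 93.2 kb had 2111 CD4 and 1676 CD8 reads (log2 0.90, or 0.51 and not called when scaled by total reads).

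End domains could differ strongly where H3K36me3 did not. Of all wide domains on chromosomes 1 to 19, 14.9% were called higher in CD4 and 18.4% in CD8, and at the ends of long blocks it was 14.0% higher in CD4 and 13.3% in CD8. For interior domains it was 14.8% higher in CD4 and 15.2% in CD8. These splits rest on the centring: scaled by total reads, 9.49% of end domains were higher in CD4 and 42.9% in CD8, and of all wide domains 8.73% were higher in CD4 and 45.2% in CD8. In blocks with H3K36me3 within 1.2-fold there were 368 end domains, of which 49 were higher in CD4 and 51 in CD8 by the centred ratio. The examples that follow were picked with their values known, and their H3K4me3 ratios were not repeated with 1 read per position. The 360 kb block chr8:84290001-84650000 had 4209 CD4 and 4884 CD8 H3K36me3 reads (log2 -0.19). Its only domain, 7.6 kb wide at its start, had 3183 CD4 and 524 CD8 H3K4me3 reads, 8.98 times higher in CD4 (8.19 to 9.87). A 2.4 kb domain at the end of an even 150 kb block on chromosome 19, chr19:25126801-25129200, had 2197 CD4 and 402 CD8 reads, while the block had 4039 CD4 and 4261 CD8 H3K36me3 reads. The reverse was seen at chr5:67751601-67753000, where 3 CD4 and 160 CD8 reads were found and the CD4 background alone would give 2.13.

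**Figure D5:**
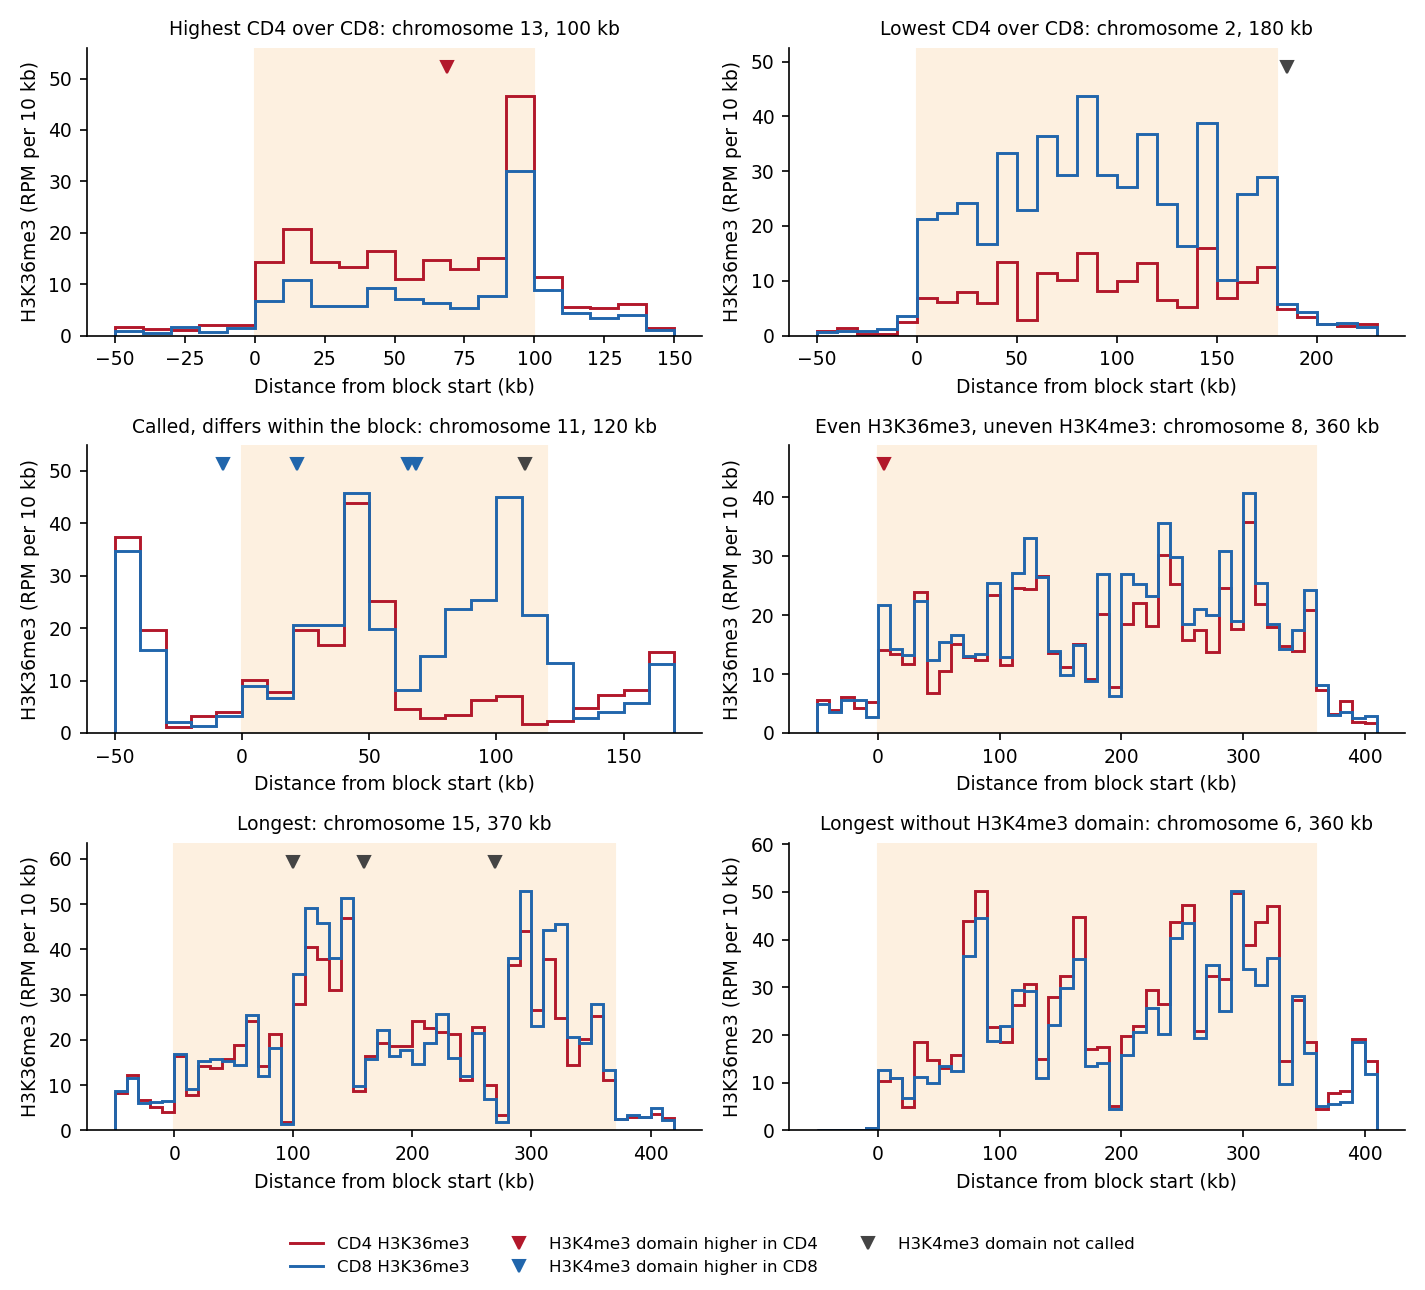
H3K36me3 in RPM per 10 kb window against distance from the block start in kb for 6 long blocks (shaded), with CD4 and CD8 drawn as separate lines and wide H3K4me3 domains as triangles coloured by the cell type in which they were called higher. On chromosome 11 the lines part over the last 50 kb, beyond the pair of domains higher in CD8, and on chromosome 8 they run together although the domain at the start is 8.98 times higher in CD4.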

How the data were processed

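ChIP-seq read positions of 6 libraries were analysed. The authors deposited the start and end of each aligned read, 1 read of 33 bp per line, and the submitters' processing notes name mm9 as the build. Which aligner was used, how reads matching several places were handled and whether duplicates were removed is not given in the sources used here. Starts were read as 0-based and are printed 1-based.

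Each read was counted at its midpoint in 10 kb windows. Windows with 150 or more reads in both inputs (45) were left out, and input was set to at least 3 reads. H3K4me3 domains needed 20 reads, were called per cell type and joined. Ratios of CD4 over CD8 were centred on their median and called at 1.5-fold with an exact 99% interval (Clopper-Pearson, given both libraries' sum). The reads carry no molecular identifiers and may repeat a molecule, so the intervals may be narrower than the counting error of molecules. No H3K4me3 ratio or call was repeated with 1 read per position, although the H3K4me3 libraries had the lowest shares of distinct positions. The block rule was tested on simulated data. Named blocks were the 10 longest, the 5 in each direction with the largest lower 95% bound of the CD4 to CD8 fold, the 5 with most interior domains and the 5 longest without a domain. All called blocks were listed too. The members, the rules and the comparisons were chosen with earlier results of these data known. Tools were SciPy 1.17.1, pandas 2.3.3, NumPy 2.4.6 and matplotlib 3.10.9 under Python 3.11.15.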

Additional observations from a re-analysis of the deposited data

Results flagged for a closer look

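Chromosome X was outside the comparisons above. The same rule gave 24 long blocks there, the longest of 240 kb, covering 1.95% of the chromosome, and none when either input took the place of the H3K36me3 libraries. They were singled out because they are a signal in data the comparisons did not use. Their H3K36me3 level was a median of 4.37 times the input in CD4 and 5.21 in CD8. The log2 ratio of CD4 over CD8 had a median of -0.32 and a range of -0.58 to 0.20, and 22 of the 24 blocks were below 0. The chromosome as a whole leaned the same way, with 128280 CD4 and 150903 CD8 H3K36me3 reads. Its input reads were 255600 in CD4 and 257269 in CD8. These totals include the reads of the blocks, and the rest of the chromosome was not measured apart from them. No block passed the 1.5-fold rule in either direction.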

How the results depend on the processing

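The number of long blocks was 284 at 3 times the input and 328 with no gap allowed, against 649. It lay between 636 and 898 under the other settings. These were 60 or 20 reads, gaps of up to 2 windows, 1 read per position, and windows with many input reads kept. The others were windows shifted by 5 kb, and each cell type alone at 20 reads. The share of blocks with an end domain, 61.3%, was 79.0% within 20 kb, 57.2% with domains at 8 times the input, 69.95% with domains of any width and 55.0% with CD8 domains only. At 2-fold, 0 blocks were higher in CD4 and 1 in CD8, against 14 in CD4 and 5 in CD8. Scaling by total reads gave 11 higher in CD4 and 6 in CD8, 1 read per position 12 in CD4 and 5 in CD8, and subtracting background 16 in CD4 and 6 in CD8. Of 114 alternative values of the 38 named blocks, 108 kept their direction and side of the threshold, 5 fell below 1.5-fold and 1 moved across 0 without having been called. None of the called blocks changed direction. For H3K4me3, scaling by total reads was added after seeing the data. It called 807 of all wide domains higher in CD4 and 4181 in CD8, against 1380 in CD4 and 1704 in CD8. At block ends it gave 50 in CD4 and 226 in CD8, against 74 in CD4 and 70 in CD8, and in the interior 75 in CD4 and 361 in CD8, against 128 in CD4 and 132 in CD8. The causes were not tested.

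With 1 library per group, variation between animals was not measured. No paired analysis was possible because each group has 1 library and the results come from no replicated test. A block can join neighbouring transcribed stretches, and which of them belong to 1 gene was not analysed here.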
